A study of Mus musculus with 3 samples.

Results

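The genes of the mitochondrial respiratory chain were examined in maps of open chromatin from cells of isolated mouse islets of Langerhans, by asking whether each gene had an accessible region at its promoter before and after inactivation of Taf4, which encodes one of the proteins of TFIID, the complex that recognises core promoters for RNA polymerase II. Members were chosen by name: autosomal protein-coding genes whose symbols begin with Nduf, Uqcr, Atp5 or Cox4 to Cox8, together with Sdha, Sdhb, Sdhc, Sdhd, Cycs and Cyc1. This gave 90 genes of 21275 autosomal protein-coding genes. Members were sorted into complexes by symbol, so that Ndufa4, now known as a subunit of complex IV, was counted under complex I. They were 36 genes of complex I, 4 genes of complex I assembly factors, 4 of complex II and 9 of complex III including cytochrome c1. Further members were the single cytochrome c gene Cycs, 17 genes of complex IV and 15 of complex V. The other 4 (Cox4nb, Atp5s, Atp5sl and Atp5l-ps1) carry such a symbol without being a structural subunit of the chain, and were kept because the rule names them.

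ATAC-seq, in which a transposase inserts sequencing adapters into accessible DNA, was performed on 3 libraries, 1 for each group. The first, labelled wild type (WT), has no time point. The other two are labelled Taf4 KO, at 1 week and at 5 weeks. All carry the strain label C5LBl6 and were made from dissociated islet cells. In the study, Taf4 was deleted in adult mice by tamoxifen in cells expressing an insulin-driven Cre-ERT2, so the other islet cells kept the gene, and the study's controls also received tamoxifen and carried the Cre. A library therefore mixes recombined beta cells with other cells, and in such bulk samples a change in cell proportions cannot be told apart from a change within a cell type. There being a single library in each group, no replicate check could be made and no p-value is given. Every difference is between these libraries, and each interval covers counting error only.

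The respiratory chain passes electrons from NADH (complex I) and succinate (complex II) through complex III and cytochrome c to oxygen (complex IV), and the proton gradient so formed drives ATP synthesis by complex V. In beta cells the ATP made in this way closes potassium channels and triggers insulin secretion when glucose is high. Complexes I, III, IV and V combine subunits encoded in the nucleus with subunits encoded in mitochondrial DNA, whereas every subunit of complex II is nuclear. Nuclear respiratory factor 1 (NRF1) and the ETS factor GABP are known regulators of many of the nuclear genes.

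The promoter sequences of 7 members on which the results turn are given from 250 bases upstream of the start to 30 bases into the first exon, in genome build mm9, written 5′ to 3′ on the strand of the gene. Capitals mark matches on either strand to the letters searched for NRF1 (GCATGCGC), GABP and other ETS factors (CCGGAAG), YY1 (AAGATGGCG), Sp1 and related factors (GGGCGG), NF-Y (CCAAT) and a TATA box (TATAAA). Uqcr11 and Cox6a1 are widely used subunit genes without a peak at 1 week, Cox6a2 is the muscle-type partner of Cox6a1, Cox7a1 is a muscle-type gene with a peak in every list, Cox7c had the highest -log10 q of all members at 1 week, and Atp5g1 and Cycs had the highest in WT.

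Uqcr11, chr10:79869546-79869825, minus strand: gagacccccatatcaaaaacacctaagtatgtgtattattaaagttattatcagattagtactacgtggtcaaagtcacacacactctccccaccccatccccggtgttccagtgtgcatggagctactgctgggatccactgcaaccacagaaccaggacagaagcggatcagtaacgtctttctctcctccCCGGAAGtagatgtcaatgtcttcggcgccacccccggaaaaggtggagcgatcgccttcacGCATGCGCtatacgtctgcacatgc
Cox6a1, chr5:115798961-115799240, minus strand: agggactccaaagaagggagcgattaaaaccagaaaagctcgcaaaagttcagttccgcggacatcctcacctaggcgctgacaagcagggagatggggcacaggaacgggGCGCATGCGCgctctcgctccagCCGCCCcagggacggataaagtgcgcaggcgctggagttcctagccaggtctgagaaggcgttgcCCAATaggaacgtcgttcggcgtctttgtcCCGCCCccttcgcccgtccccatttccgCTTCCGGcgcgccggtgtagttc
Cox6a2, chr7:135349851-135350130, minus strand: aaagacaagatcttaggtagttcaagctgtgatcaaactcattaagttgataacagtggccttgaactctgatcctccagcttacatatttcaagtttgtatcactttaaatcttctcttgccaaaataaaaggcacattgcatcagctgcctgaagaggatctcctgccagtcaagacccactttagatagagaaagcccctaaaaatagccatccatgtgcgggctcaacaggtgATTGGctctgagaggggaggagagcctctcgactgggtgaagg
Cox7a1, chr7:30968940-30969219, plus strand: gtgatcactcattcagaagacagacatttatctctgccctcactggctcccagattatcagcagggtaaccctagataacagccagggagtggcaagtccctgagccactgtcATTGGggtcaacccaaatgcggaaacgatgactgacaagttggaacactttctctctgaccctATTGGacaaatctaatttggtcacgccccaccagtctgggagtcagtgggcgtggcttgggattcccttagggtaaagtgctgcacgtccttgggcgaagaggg
Cox7c, chr13:86186480-86186759, minus strand: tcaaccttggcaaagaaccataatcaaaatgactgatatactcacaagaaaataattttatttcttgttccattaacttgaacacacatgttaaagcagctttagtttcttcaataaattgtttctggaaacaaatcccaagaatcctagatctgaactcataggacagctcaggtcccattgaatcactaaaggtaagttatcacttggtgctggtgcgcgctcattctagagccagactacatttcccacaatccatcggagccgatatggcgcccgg
Atp5g1, chr11:95936955-95937234, minus strand: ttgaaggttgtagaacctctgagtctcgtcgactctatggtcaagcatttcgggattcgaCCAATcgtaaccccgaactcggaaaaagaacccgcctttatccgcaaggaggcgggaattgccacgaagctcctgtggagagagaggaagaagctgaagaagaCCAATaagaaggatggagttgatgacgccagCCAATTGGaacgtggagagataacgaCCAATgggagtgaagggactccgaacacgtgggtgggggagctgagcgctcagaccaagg
Cycs, chr6:50516508-50516787, minus strand: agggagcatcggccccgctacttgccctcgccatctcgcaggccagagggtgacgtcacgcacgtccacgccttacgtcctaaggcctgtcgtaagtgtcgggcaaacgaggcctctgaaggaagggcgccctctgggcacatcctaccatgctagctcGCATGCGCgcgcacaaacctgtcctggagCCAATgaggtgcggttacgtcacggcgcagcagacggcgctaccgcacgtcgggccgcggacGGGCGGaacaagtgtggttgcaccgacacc

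Uqcr11 held an ETS match 57 bases upstream of its start and an NRF1 match beginning 5 bases downstream of it. Cox6a1 held overlapping NRF1 matches on both strands at -139 and -137 and an ETS match at +7, whereas its partner Cox6a2 held a single NF-Y match and neither of the others. Atp5g1 held 5 NF-Y matches, one pair of them overlapping on opposite strands at -56 and -53, and no NRF1 or ETS match. Cycs held 1 NRF1 match at -91. None of the letters searched were present in the Cox7c window.

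Throughout, 3 values given in a row stand for the WT, the 1 week and the 5 week library, in that order. The peak lists held 60898 regions in WT, 150354 at 1 week and 151725 at 5 weeks. Read totals were not used here. Percentile 1 of the local backgrounds recovered from fold and p was 3.66 reads in WT, 6.45 at 1 week and 9.38 at 5 weeks. By this floor the Taf4 KO lists were the deeper ones by 1.76 and 2.57 times. The 1 week list had 12225 peaks on the X chromosome, against 1272 in WT and 1451 at 5 weeks, and Y peaks were listed only at 5 weeks (44). Beta cell markers had promoter peaks at 8, 7 and 7 of 8 genes in the WT, 1 week and 5 week lists, alpha cell markers at 3, 4 and 4 of 4, and delta cell markers at 1, 2 and 3 of 3. Of the acinar markers 0, 0 and 1 of 6 had one, of the endothelial markers 1, 2 and 3 of 4, and of the immune markers 0, 1 and 0 of 4. Over all autosomal protein-coding genes the shares were 59.9%, 56.2% and 66.7%. Where called, markers whose call differed had a -log10 q below 3, such as 1.41 and 1.33 at Sst at 1 week and 5 weeks. Gcg, with 4.96 and 7.14 at these times, was the exception. The marker numbers moved with the groups, and their part in the results was not tested. A promoter peak does not report the deletion of Taf4, which was not checked here.

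A gene was counted as having a promoter peak where a region of the list overlapped the stretch of 1000 bp before and 100 bp after one of its protein-coding starts. In WT 82 of the 90 respiratory chain genes had one (91.1%, Wilson 95% interval 83.4 to 95.4), against 59.9% of all autosomal protein-coding genes. At 1 week 70 had one (77.8%, 68.2 to 85.1), against 56.2% of all genes. At 5 weeks the number was again 82 (91.1%), against 66.7% of all genes. The promoters of the chain were thus listed as open more often than those of genes at large in every library, and fewest of them were listed at 1 week, in a list more than 2 times as long as that of WT.

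**Figure D1:**
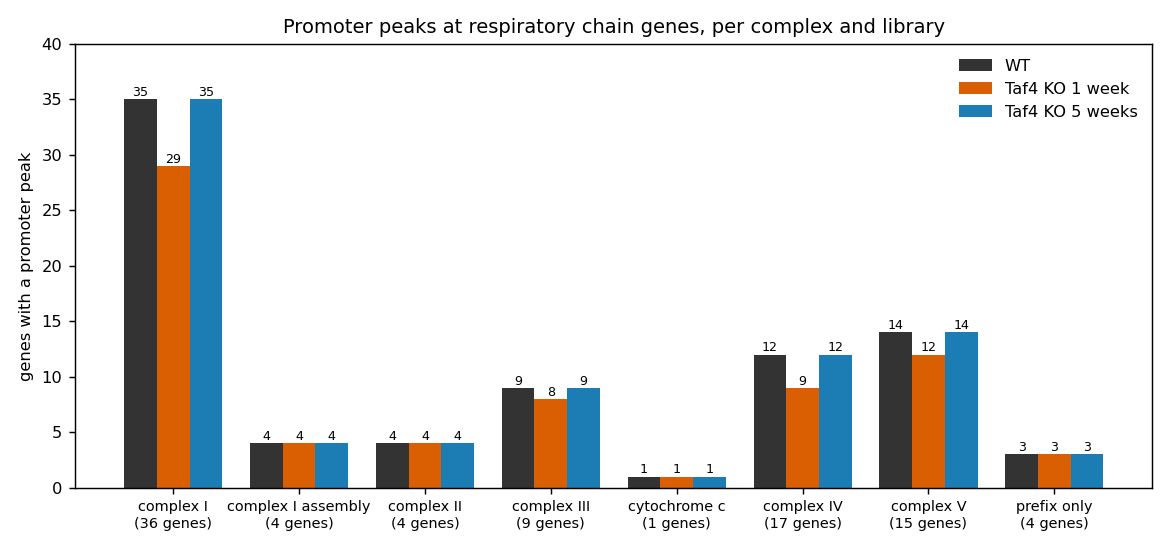
Number of genes with a promoter peak (vertical axis) in each complex of the respiratory chain, in WT, Taf4 KO 1 week and Taf4 KO 5 weeks; the number of genes in each class is under its name, and each bar is 1 library. Complexes I, III, IV and V had fewer promoter peaks at 1 week than in the other libraries, and complex II had 4 of 4 throughout.

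The calls followed 4 patterns. A peak was present in all 3 lists at 69 genes, at 13 genes in the WT and 5 week lists alone, only at 1 week at 1 gene, and in none at 7 genes. The 69 were 76.7% of members, against 51.0% of all genes, and the 7 were 7.78%, against 30.5%. The 13 genes without a peak at 1 week made up 15.9% (9.51 to 25.3) of the 82 with one in WT, against 14.8% of all genes with a WT promoter peak. That share was near the background. At 5 weeks 0 of the 82 were without one, against 1.83% of all genes. Of the 8 members without a WT peak, 1 had one at 1 week and 0 at 5 weeks, where 12.7% and 19.7% of all such genes had gained one.

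The share of members without a 1 week peak depended on how weak a peak was still counted. With a minimum -log10 q of 3 it was 28 of 81 (34.6%, against 21.4% of all genes), and with a minimum of 5 it was 36 of 79 (45.6%, against 35.8%). With all lists shortened to the 60898 strongest peaks it was 25 of 82 (30.5%, against 20.8%), and with both Taf4 KO lists scaled to the WT background it was 25 of 82 again, against 20.3%. At 5 weeks the corresponding numbers were 0, 2, 1 and 2 genes. Of the 70 members with a peak at 1 week, 43 kept it under all 4 of these settings. Of the 82 with a peak at 5 weeks 79 did so, and of the 82 in WT also 79. In WT this rests on the minimum -log10 q alone. The WT list set the shortened length and the background, so those settings could not remove a WT peak.

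The 13 genes came from 4 complexes and included core as well as accessory subunits. From complex I they were Ndufs1 and Ndufs7, which carry iron-sulfur clusters of the electron path, and the accessory subunits Ndufa7, Ndufa9, Ndufb8 and Ndufb10. From complex III the gene was Uqcr11, a small accessory subunit. From complex IV they were Cox6a1, Cox6c and Cox6b2, and from complex V Atp5a1, which encodes the alpha subunit of the head that makes ATP, with Atp5j2 and Atp5l of the membrane part. No peak of the 1 week list overlapped any of their 13 WT peaks.

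Several of these promoters were strong in WT. Uqcr11 (chromosome 10, 79865742 to 79869575, minus strand) had a WT peak of 561 bp at 79869212 to 79869772, over its start and first exon, with a fold over local background of 5.14 and a -log10 q of 18.9. It had no peak at 1 week and a peak of 528 bp with a -log10 q of 19.8 at 5 weeks. Its WT peak exceeded 94.2% of the peaks of its list and its 5 week peak 95.8%, so that its absence from the 1 week list stood between 2 nearly equal values. Ndufa7 had a -log10 q of 17.2 in WT and 8.65 at 5 weeks, and Ndufs7 had 16.9 and 13.3. Ndufa7 shares its promoter with Rps28, a ribosomal protein gene whose start on the opposite strand lies 29 bp away.

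The others were of middle or low strength. The -log10 q in WT and at 5 weeks was 13.3 and 6.93 at Atp5a1, 13.2 and 10.6 at Cox6a1, 11.4 and 7.65 at Ndufs1, and 10.7 and 4.41 at Ndufa9. It was 10.5 and 8.21 at Atp5j2, 9.81 and 3.07 at Cox6c, 9.28 and 6.55 at Ndufb10, and 5.17 and 5.30 at Atp5l. At the low end it was 4.84 and 13.5 at Ndufb8 and 1.12 and 1.21 at Cox6b2. By this measure 9 of the 13 had a weaker peak at 5 weeks than in WT, and Uqcr11, Atp5l, Ndufb8 and Cox6b2 did not, although the 5 week list was the deeper one. Cox6b2 was just above the lowest value its list contained, and its call was not kept with a minimum of 3.

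**Figure D2:**
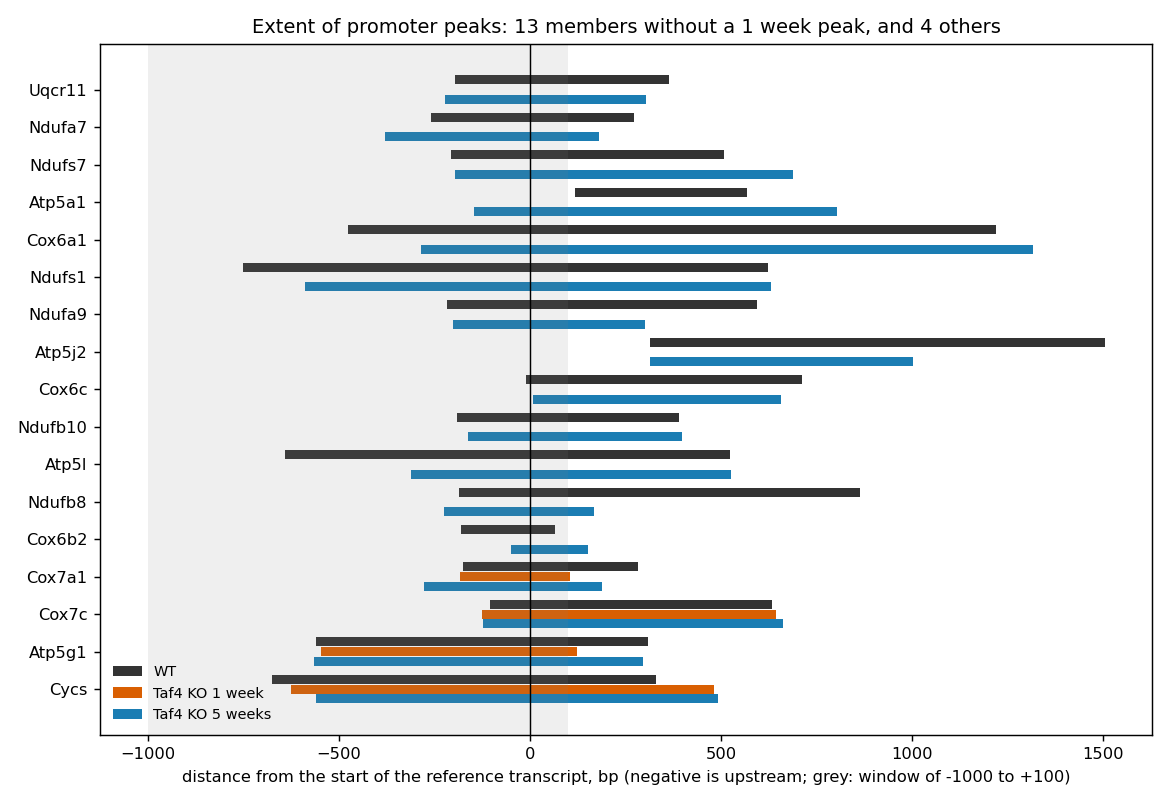
Extent of the promoter peak in bp from the start of the reference transcript (horizontal axis, negative upstream; the shaded part is the window of 1000 bp before to 100 bp after it) for the 13 members without a peak at 1 week and for Cox7a1, Cox7c, Atp5g1 and Cycs; each bar is the peak of 1 library. The WT and 5 week peaks of the 13 overlap, but some differ in width, as at Ndufb8 (1051 and 395 bp) and Atp5a1 (449 and 950 bp). The peaks of Atp5a1 (WT) and Atp5j2 lie downstream of this start and reach the window of another annotated start. The 5 week peak of Cox6c begins 9 bp downstream of it. Cox7c has 3 peaks of nearly the same extent.

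The single gene with a peak only at 1 week was Atp5f1, which encodes the b subunit of the peripheral stalk of complex V. Its 1 week peak (chromosome 3, 105761773 to 105762943) had a -log10 q of 4.12 and reached the window by its edge, while a WT peak overlapped it without reaching the window. With the starts of all its transcripts counted, the gene had a peak in every list. The opposite-strand start of Wdr77 lies 730 bp from that of Atp5f1.

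The 7 genes without a promoter peak in any list were Cox4i2, Cox6a2, Cox7b2, Cox8b, Cox8c, Ndufa4l2 and Atp5l-ps1. The first 6 belong to the 8 isoforms known for restricted use, such as in muscle and heart (Cox6a2, Cox7a1, Cox8b), in testis (Cox6b2, Cox7b2, Cox8c), or in lung and under low oxygen (Cox4i2, Ndufa4l2). Of these 8 genes the lists held a peak at 2, 1 and 2. Their 6 widely used partners (Cox4i1, Cox6a1, Cox6b1, Cox7a2, Cox8a and Ndufa4) had a peak at 6, 5 and 6 promoters, the one without at 1 week being Cox6a1. Of all genes, 59.9%, 56.2% and 66.7% had a promoter peak. The islet lists thus held the promoters of the general isoforms and few of the restricted ones.

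Cox7a1, the muscle and heart form of subunit 7a, was the exception among them. Its peak (WT, chromosome 7, 30969015 to 30969472, over the start of the gene at 30969190 to 30971047, plus strand) had a fold of 2.83, 2.51 and 4.44. Its -log10 q was 3.25, 2.26 and 15.4, and its 1 week call was kept under none of the 4 stricter settings given above. The peak exceeded 44.8%, 56.1% and 92.5% of the peaks of its lists, the largest gain in rank of any member at 5 weeks. Over the same lists its partner Cox7a2 had a -log10 q of 20.3, 15.3 and 19.9. Of 6 other muscle and heart markers 1 had a peak in each list: that was Myh7, whose peak lay 803 bp or more upstream of its start, while Myh6, Acta1, Ckm, Mb and Tnnt2 had none. All 4 testis markers, relevant to the weak peak at Cox6b2, were without one.

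At the 69 promoters with a peak in all 3 lists, the peaks at 1 week were narrower, lower over background and lower in rank. The median width was 899, 649 and 864 bp in the WT, 1 week and 5 week lists. The median fold was 5.25, 3.53 and 4.47. The median -log10 q was 17.0, 6.54 and 18.3, against 13.3, 6.73 and 15.5 over all genes with a peak in all lists. Deeper libraries give larger values of this measure for the same fold. The 1 week library stood below the others in all 3 measures, and the 5 week library was close to WT in width and about midway between the other two in fold.

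Over all genes, peaks at 1 week were likewise narrower and lower over background in most cases, though less often than at the members. At 1 week the width was smaller than in WT at 59 of 69 members (85.5%, 75.3 to 91.9), against 66.0% of all genes with a peak in both lists. The fold was lower at 66 of 69 (95.7%), against 82.9% of all genes, and the percentile of the peak among all peaks of its list was lower at 43 of 69 (62.3%), against 40.5%. At 5 weeks the width was smaller than in WT at 42 of 82 members (51.2%), against 37.1% of all genes, the fold was lower at 71 of 82 (86.6%), against 76.5%, and the percentile was lower at 34 of 82 (41.5%), against 20.1%. Each share of members was above its background, and both comparisons share the WT library. The percentile depends on the length of the list: with lists of equal number it was lower than in WT at 84.2% of members at 1 week and 76.5% at 5 weeks, against 71.9% and 71.5% of all genes.

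Rank among the promoter peaks of all genes was used as well, since it does not change with the number of distal peaks in a list. For the 69 members the median change in this percentile was -18.8 points at 1 week, against +1.14 for the genes with a promoter peak in all lists. At 5 weeks it was -2.37, against +4.25. The median ratio of width to WT was 0.717 at 1 week, against 0.878 for all those genes, and 1.01 at 5 weeks, against 1.05. The ribosomal protein genes, a class of similar size and broad use, had a width ratio of 0.705 and a change of -22.3 points at 1 week, close to the respiratory chain. The proteasome subunit genes had a width ratio of 0.662, but their percentile changed by -4.88. At 5 weeks the percentile changed by -1.26 in the ribosomal class and by -0.306 in the proteasome. This rank still depends on how many weak promoter peaks a list holds. With lists of equal number, over genes with a peak in both lists compared, it changed at members by -17.2 at 1 week and -7.57 at 5 weeks. For all genes it then changed by -2.03 and -0.49, in place of a rise.

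A smaller share of calls was lost in the respiratory chain than in the ribosomal proteins. At 1 week 29 of the 86 ribosomal protein genes called in WT were no longer called (33.7%), and 7 of the 35 proteasome genes, against the 13 of 82 (15.9%) given above. At 5 weeks 86 of 89 ribosomal protein genes and 36 of 38 proteasome genes had a peak. The chain and the ribosomal class were thus close in the rank and width of the peaks that remained and further apart in the share of peaks lost, differences that could not be tested with these libraries.

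The narrowing was on both sides of the start. At the 69 members the upstream edge lay at a median of -381 bp in WT, -259 bp at 1 week and -378 bp at 5 weeks, and the downstream edge at +431, +304 and +462 bp. The peak covered the start of the reference transcript at 69, 66 and 69 genes. Atp5h, a stalk subunit of complex V, was the narrowest relative to WT after Cyc1, with 1340, 282 and 1386 bp. Uqcrh, the hinge protein of complex III, went the other way and had the widest peak of all members at 1 week, with 2382, 3660 and 2360 bp.

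**Figure D3:**
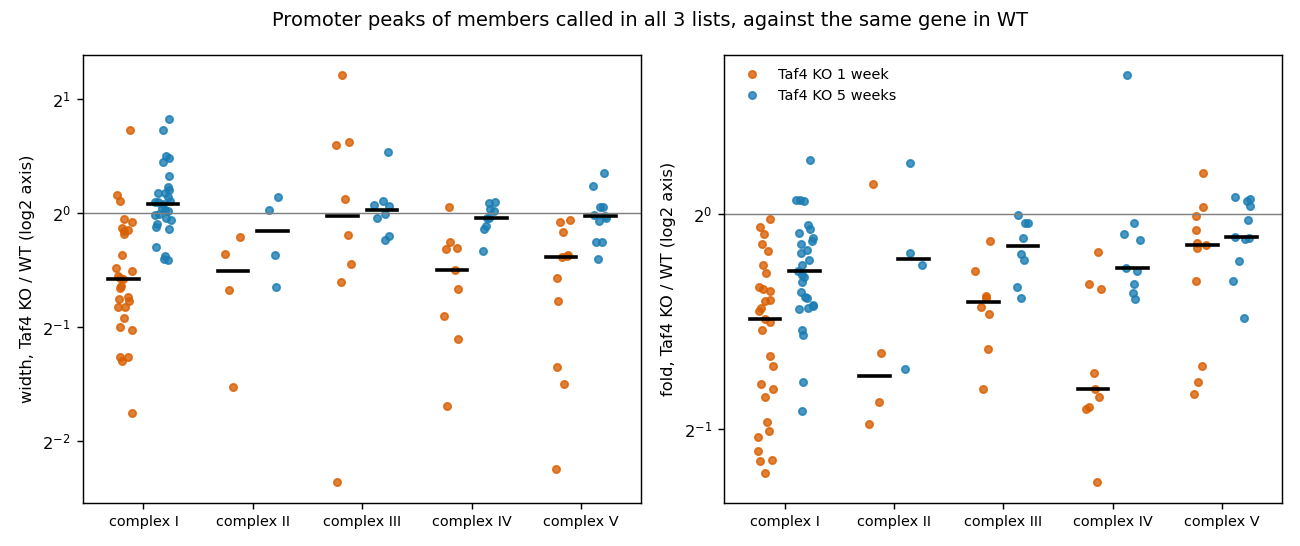
Width (left) and fold over local background (right) of the promoter peak in each Taf4 KO library divided by the value of the same gene in WT, on log2 axes, for members of complexes I to V with a peak in all 3 lists; points are genes, black lines are medians and the grey line is equality. At 1 week most points lie below equality in both measures, while at 5 weeks widths are spread about equality and folds lie mostly below it.

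Among the 29 complex I genes with a peak in all lists, the median promoter percentile changed by -18.3 points at 1 week and by -7.38 at 5 weeks. Ndufs8, a core subunit of the hydrophilic arm, had one of the strongest promoters of the chain in WT. Its -log10 q was 30.02, 10.1 and 35.9, with the lowest value at 1 week.

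The largest drop in list percentile of any member at 1 week was that of Ndufa10, an accessory subunit, from 84.0 in WT to 12.9 at 1 week and 76.7 at 5 weeks. Its -log10 q was 11.5, 1.37 and 6.35, and its width 1130, 1009 and 1080 bp, so the peak was kept at nearly its full width with a low value. Rises at 1 week were seen at Ndufb3 (from 70.96 to 95.8), Ndufa3 (from 84.4 to 97.5) and Ndufa12 (from 84.0 to 95.5). Ndufb3 had the lowest WT value of the complex among genes with a peak in every list, a -log10 q of 7.05, followed by 11.2 at 1 week and 14.4 at 5 weeks. At Ndufa12 the values were 11.5, 10.9 and 26.2. At 5 weeks Ndufs4 and Ndufb6 were among the 5 members with the largest drop in rank: from 85.4 to 76.1 at Ndufs4, and from 88.9 to 78.8 at Ndufb6. The other 3 of these 5 were Cox6c, Ndufa9 and Ndufa7, which had no peak at 1 week.

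The 4 complex I assembly factors had a peak in all lists, as had 51.0% of all genes. Their list percentile was lower at 1 week in 4 of 4, against 40.5% of all genes. Ndufaf1 showed the largest drop of the group, with a -log10 q of 11.1, 1.65 and 14.4. Ndufaf2 showed the smallest, with 21.9, 11.5 and 20.6. Ndufaf4 had 19.2, 5.58 and 14.9, while its peak was wider in both Taf4 KO libraries (634, 1440 and 1482 bp).

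All 4 complex II genes had a peak in every list, as had 51.0% of all genes. Sdha, the flavoprotein that oxidises succinate, had a -log10 q of 22.4, 7.11 and 13.03. Sdhd, a membrane anchor, had 19.8, 4.30 and 19.1, and Sdhc, the other anchor, had 10.2, 1.87 and 13.2. Sdhb, the iron-sulfur subunit, differed from them: its -log10 q was 11.04, 8.06 and 19.4, its fold 3.48, 3.83 and 4.11, and its list percentile 82.9, 91.9 and 95.5. Sdhb was thus the only member of the complex with a higher fold in both Taf4 KO libraries than in WT, while its peak was narrower in both (1212, 420 and 772 bp). The median change in promoter percentile over the 4 genes was -31.7 points at 1 week and +2.19 at 5 weeks.

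At 1 week complex III changed least in promoter percentile of complexes I to V, and at 5 weeks most, just ahead of complex I (-7.38). By list percentile the order differed. Complex V changed least at 1 week (+0.17, against +1.29 for complex III) and complex II most at 5 weeks (+4.76, against +4.56). Over the 8 genes with a peak in all lists the median change in promoter percentile was +0.11 points at 1 week and +7.50 at 5 weeks. At 1 week 4 of 8 had a narrower peak (50%, 21.5 to 78.5), an interval that contains the 66.0% of all genes. Uqcrfs1, the Rieske iron-sulfur protein, had a -log10 q of 19.6, 8.61 and 18.8. Uqcrq, a small accessory subunit, had nearly the same WT value but a lower one at 1 week, with 19.4, 2.88 and 19.5. Uqcrh had the lowest WT value at 8.002, with 2.93 and 10.5 thereafter. Cyc1, which encodes cytochrome c1, had 8.76, 6.26 and 9.54, and its list percentile was 76.9, 88.0 and 84.4. Its peak was 1395, 271 and 1503 bp wide, the largest relative narrowing of any member at 1 week.

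Cycs, the mobile carrier between complexes III and IV, had one of the strongest promoters of the chain. The -log10 q of its peak was 38.8, 9.45 and 34.7, with a fold of 6.76, 4.14 and 5.78. Its width was 1004, 1107 and 1052 bp and so did not follow the general narrowing at 1 week.

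Complex IV had the largest drop in promoter percentile at 1 week among the subunit-bearing complexes. By list percentile complex II dropped more (-10.3, against -9.18 for complex IV). Over 9 genes with a peak in all lists the median change in promoter percentile was -37.5 points at 1 week and -2.21 at 5 weeks. Cox8a had a -log10 q of 32.2, 8.80 and 31.5, and Cox5b 23.9, 6.33 and 29.3. Cox5a, the partner of Cox5b in the complex, had 21.4, 1.85 and 16.0, and its peak was 978, 302 and 950 bp wide. Cox6b1 had 18.9, 4.71 and 25.6, and Ndufa4, counted under complex I by its symbol and now known as a subunit of complex IV, had 20.2, 14.5 and 19.8. Cox4i1, which lies head to head with Cox4nb at a distance of 178 bp, shared 1 peak with it, with a -log10 q of 11.1, 1.68 and 8.70.

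Cox7c was the only complex IV gene with a higher -log10 q at 1 week than in WT. Its -log10 q was 23.1, 25.8 and 31.9, its peak exceeded 97.1%, 99.8% and 99.4% of the peaks of each list, and its width was 739, 768 and 786 bp. Its fold was 7.40, 5.81 and 6.23 and so was lower in both Taf4 KO libraries, while its WT fold was the highest of all members. It was the strongest member by -log10 q at 1 week.

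Complex V also kept its rank better than complexes I, II and IV at 1 week. Over 11 genes with a peak in all lists, the median change in promoter percentile was -5.82 points at 1 week and -0.15 at 5 weeks. Atp5g1, one of 3 genes for the c subunit of the rotating ring, had the highest -log10 q of all members in WT and at 5 weeks, with 47.8, 9.79 and 47.5. Atp5g3, another of the 3, had the lowest WT value among members of the complex with a peak in every list, with 10.3, 1.87 and 9.29. The remaining one, Atp5g2, had 20.2, 7.48 and 18.3. All 3 genes for the same protein therefore had their lowest value at 1 week. So did the median over all genes with a peak in every list (13.3, 6.73 and 15.5), so this is not particular to them. Atp5e, the epsilon subunit, had 24.5, 20.1 and 34.0 and kept a place above 97.6%, 99.3% and 99.6% of the peaks of its lists.

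Among genes with only the prefix, Atp5s had 28.3, 18.6 and 35.0 and Atp5sl 15.1, 2.29 and 19.2.

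**Figure D4:**
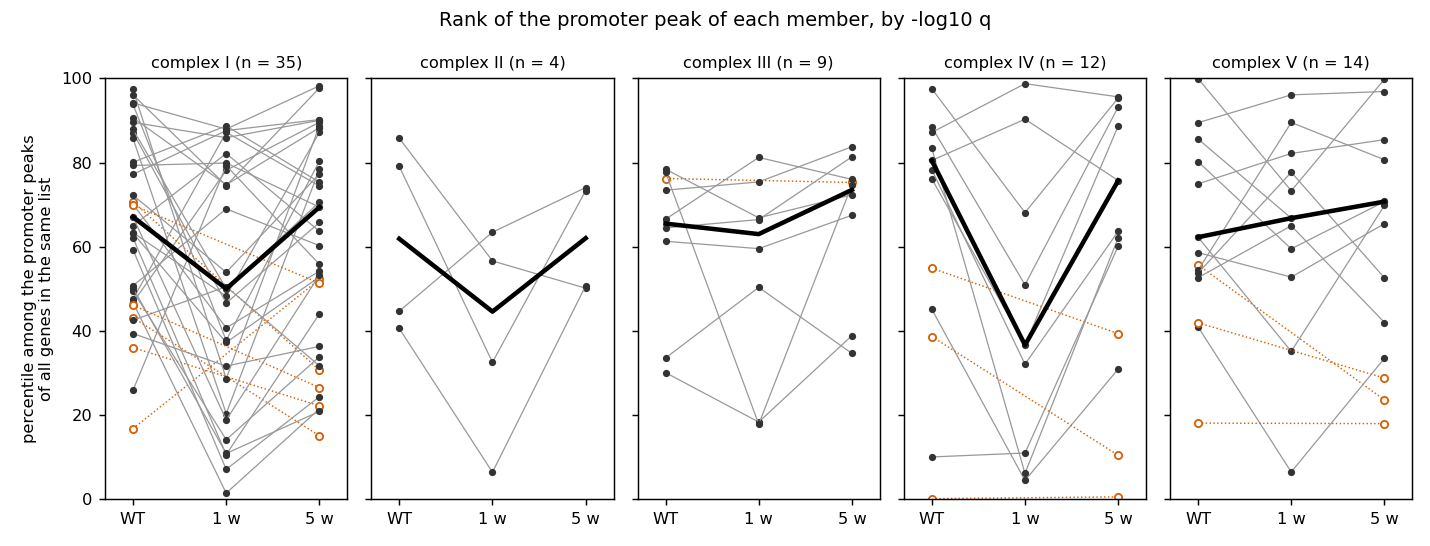
Percentile of the promoter peak of each member among the promoter peaks of all genes in its list, by -log10 q (vertical axis), in WT and in Taf4 KO at 1 week and 5 weeks, for members of each complex with a WT peak (n). Grey lines join the values of a gene, black lines are medians over genes with a peak in all lists, and open orange circles with dotted lines are genes without a peak at 1 week; the medians of complexes I, II and IV dip at 1 week, and those of complexes III and V change less there.

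Divergent promoters were common among members. A protein-coding start on the opposite strand lay within 1000 bp of 27 of 90 genes (30%), against 10.6% of all genes and 16.5% of genes with a WT promoter peak. A peak at such a promoter cannot be assigned to one of the 2 genes. The pairs included Sdhd with Timm8b (52 bp), a mitochondrial import gene, Ndufb5 with Mrpl47 (157 bp), a mitochondrial ribosomal protein gene, Ndufs1 with Eef1b2 (3 bp), a translation factor gene, and Atp5j with Gabpa (501 bp), which encodes the DNA-binding subunit of GABP. The 1 week list lacked a peak at 2 of the 26 divergent members called in WT (7.69%) and at 11 of the 56 others (19.6%). Over all genes the shares were 12.9% and 15.1%. The peak was narrower at 1 week at 22 of 24 divergent members (91.7%) and at 37 of 45 others (82.2%), against 73.9% and 64.4% over all genes, so that the divergent promoters had the higher share in both.

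The NRF1 letters were present in the 300 bases around the start (250 before it and 50 after it) of 12 members (13.3%), against 3.37% of all genes and 5.13% of genes with a WT promoter peak. The 12 genes were Atp5g2, Atp5k, Atp5l, Cox6a1, Cox8c, Cycs, Ndufa6, Ndufa11, Ndufaf4, Sdhb, Uqcr11 and Uqcrc1. The ETS letters were present in 17 members (18.9%), against 11.1% and 17.0%, and the YY1 letters in 6 (6.67%), against 1.91% and 2.95%. The Sp1 letters were present in 44 (48.9%), against 45.2% and 64.8%, and the NF-Y letters in 34 (37.8%), against 37.4% and 37.1%. Of the 13 members without a 1 week peak 3 held the NRF1 letters, and of the 69 with a peak in all lists 8 did. The TATA letters were present in 9 members (10%), against 13.5% and 6.78%, among them 4 of the 13 (Atp5j2, Atp5l, Cox6c and Ndufa7) and 3 of the 69. All letters were searched around the start of the reference transcript. The Atp5j2 peaks lay 315 bp or more downstream of that start, so its match is outside them. No set of letters searched contains another, and each match describes the sequence only.

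Loss of a promoter peak at 1 week went with the GC content of the surrounding 1 Mb in all genes. With genes with a WT peak split into 5 groups of rising GC content, 2.90%, 7.77%, 11.2%, 21.0% and 30.9% of all genes had no peak at 1 week. Among members the numbers were 1 of 12, 1 of 17, 3 of 14, 4 of 25 and 4 of 14, so that members without a peak were also more frequent in the upper groups. The narrowing of the members remained above the background in each group: it was seen at 72.7%, 75.0%, 90.9%, 90.5% and 100% of members with a peak in both lists, against 37.4%, 58.9%, 70.9%, 82.7% and 90.3% of all genes. The change in rank was uneven over the groups. The median change of members in promoter percentile at 1 week was +7.99, -7.89, -34.2, -26.7 and -26.6 points. For all genes it was +11.7, +3.97, -1.15, -4.39 and -9.12. Members were thus below all genes in each group, but in the lowest group their median rank rose. The part of GC-dependent coverage in these values was not tested.

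**Figure D5:**
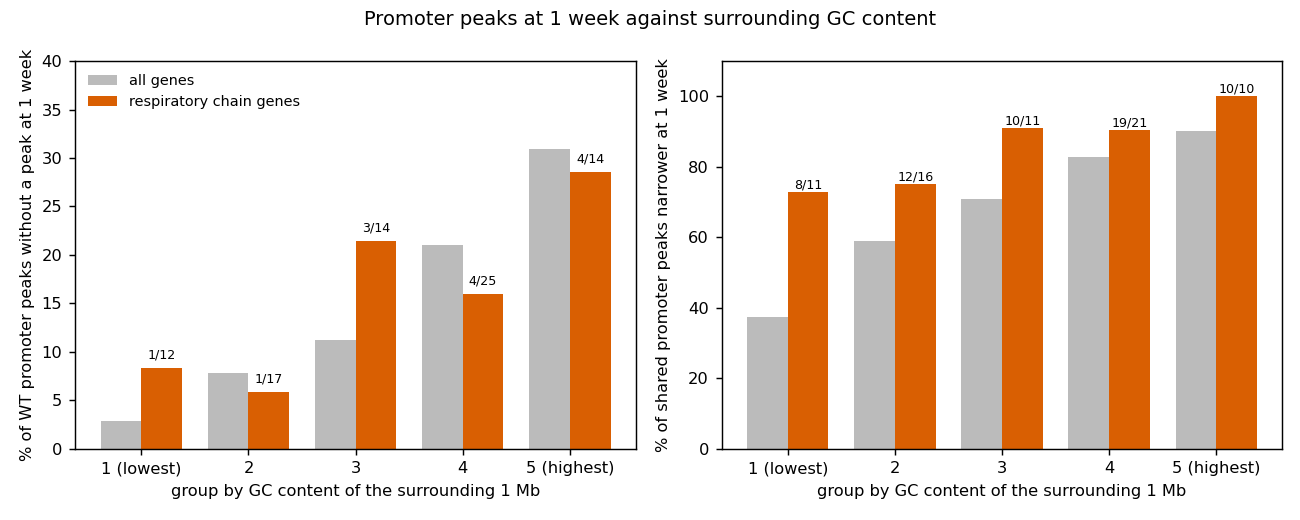
Share of WT promoter peaks without a peak at 1 week (left) and share of promoter peaks narrower at 1 week than in WT (right), in percent, for all genes (grey) and respiratory chain genes (orange; numbers above bars are the members counted and all members in the group that could be counted) in 5 groups of rising GC content of the surrounding 1 Mb. Both shares rise with GC content in all genes, and the share of narrower peaks is higher for the respiratory chain in each group.

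Members were stronger in WT than genes at large, with 6, 37 and 39 of the 82 in the lower, middle and upper class when all WT promoter peaks were split into 3 equal classes by -log10 q. Of these members 3, 7 and 3 had no peak at 1 week, against 29.3%, 11.02% and 3.93% of all genes. The median change in promoter percentile at 1 week was +0.93 points in the lower class, with 3 members, against +15.8 for all genes. It was -11.4 in the middle class, against +2.40 for all genes, and -24.1 in the upper class, against -9.50. The classes were split by the same WT value from which the change is measured, so that a fall in the upper and a rise in the lower class can arise from the split alone, and the values are given as a description.

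All 18 assembly factors of complexes II to V listed here had a WT peak and 16 had one at 1 week, Cox19 and Ttc19 being the exceptions. The 2 of 18 without a peak were near the background share of 14.8% given above, as were the 2 of 16 of the citric acid cycle. All 13 regulators, among them Nrf1, Gabpa, Esrra, Ppargc1a and Tfam, had a peak in every list, as had 51.0% of all genes. The -log10 q of Nrf1 was 18.6, 7.43 and 14.1, that of Tfam, which packages and transcribes mitochondrial DNA, 10.3, 4.49 and 13.4, and that of Ppargc1a, a coactivator of mitochondrial biogenesis, 13.9, 12.02 and 11.4. Of 16 citric acid cycle genes, which include the 4 of complex II, 16, 14 and 16 had a peak, and Idh3b was among those without one at 1 week. The median change in promoter percentile at 1 week was -8.22 points for the assembly factors, -5.51 for the regulators and -16.0 for the citric acid cycle, against -18.8 for the respiratory chain.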

How the data were processed

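ATAC-seq was measured in 3 libraries of mouse islet cells, 1 per group as labelled. Per the labels and the study's methods, the authors demultiplexed reads with bcl2fastq 2.17.1.14, mapped them to mm9 with Bowtie 1.0.0, keeping unique alignments, and called broad peaks with MACS2 2.1.1 in each library. Unique mapping can leave out reads of genes with near-identical copies. The deposited lists give each region with its fold over local background (a ratio), -log10 p and -log10 q. Each fold is relative to the local background of its own library, and read totals were not used here. The score that MACS2 also wrote into the lists deposited by the authors was not used.

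Starts came from protein-coding transcripts of GENCODE vM1 on the mm9 genome, and all autosomal peaks ended within its chromosomes. One gene was kept per symbol. Overlapping gene IDs that share a symbol were joined, which bears on Ndufb8 and was decided after seeing the data. Peaks overlapping the 1000 bp before and 100 bp after a start by at least 1 bp were counted, and the one with the highest -log10 q was used. Percentiles are the share of peaks of the same list with a lower -log10 q. The background floor is percentile 1 of the local backgrounds recovered from fold and p. No filter on low values was applied, and every one of the 90 members entered the counts. Python 3 with numpy, scipy and pandas was used, and the overlap search and the recovery of background were tested on simulated data. Alternatives were a minimum -log10 q of 3 or 5, lists of equal number, scaling to the WT background, a window of 2000 bp before to 500 bp after the start, starts of all transcripts, an overlap of 100 bp, the nearest peak, members without 10 restricted or prefix-only genes, and, chosen after seeing the data, the longest gene ID alone.

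Members, lists and markers were chosen with earlier results of these data known. Named genes were those whose call differed between libraries, the restricted isoforms and their partners, the 2 highest and 1 lowest in WT of each complex among genes with a peak in every list, complex II and the cytochrome c genes, and the 5 largest drops and rises in list percentile at each time. Other genes named, such as Cox7c, Atp5g2, Atp5h and those of the pathway lists, were chosen after their values were seen. Some items that these rules cover are not reported here.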

Additional observations from a re-analysis of the deposited data

Results flagged for a closer look

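The mitochondrial genome, which encodes subunits of complexes I, III, IV and V, lies outside the promoter counts and held 2 peaks in each list. For the first the -log10 q was 13.2, 11.3 and 13.7 in the WT, 1 week and 5 week lists, so that its value was above that of WT at 5 weeks only. The second had 21.0, 18.3 and 20.1. The share of peaks of the list below them was 87.3%, 95.9% and 90.7% for the first. For the second it was 95.85%, 99.05% and 95.98%. By that share, which depends on the length of the list, both were above WT at both times and highest at 1 week. Their folds lay between 1.56 and 1.80, and they overlapped 7 of the 13 protein-coding genes of this genome in every list (mt-Nd1, mt-Nd2, mt-Co1, mt-Nd4, mt-Nd5, mt-Nd6 and mt-Cytb).

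The effects at the 2 times had opposite signs in some medians over the members with a peak in all lists. The differences between the times were not tested, as there is 1 library at each. The median change in percentile among all peaks of the list was -4.45 points at 1 week and +0.86 at 5 weeks for all members, a gap of 5.31 points. The corresponding gap was 4.29 points for complex I, 14.1 for the complex I assembly factors, 15.1 for complex II and 9.72 for complex IV. The median width ratio to WT was 0.717 and 1.01 for all members, a gap of 0.296, with a gap of 0.389 for complex I and 0.0344 for complex III. The list percentile rises with the number of weak peaks in a list, and with lists of equal number 84.2% of members had a lower percentile than in WT at 1 week and 76.5% at 5 weeks, against 71.9% and 71.5% of all genes.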

How the results depend on the processing

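No paired analysis was possible because each group has 1 library. The number of members with a WT peak and no peak at 1 week was 13, and it was 28 with a minimum -log10 q of 3, 36 with a minimum of 5, and 25 with lists of equal number and, equally, 25 when the Taf4 KO lists were scaled down. At 5 weeks it was 0, and it was 2 with a minimum of 5, 1 with equally long lists and 2 when scaled. With a minimum of 5, 43 members had a peak at 1 week in place of 70, and 0 had gained one at 1 week and 2 at 5 weeks. The single gain at 1 week, Atp5f1, became 0 with a window of 2000 bp before to 500 bp after the start, with the starts of all transcripts and with an overlap of 100 bp, and the wider window gave 1 gain at 5 weeks. The median list percentile of members, 90.8 in WT, 88.5 at 1 week and 93.8 at 5 weeks, was 84.4, 75.0 and 84.7 with a minimum of 3, and 78.1, 64.5 and 79.2 with a minimum of 5. At 1 week it was 80.4 with equally long lists and 80.7 when scaled, and 84.5 and 82.4 at 5 weeks. The median fold was 4.12 at 1 week with a minimum of 5, in place of 3.52, and 3.98 at 5 weeks when scaled, in place of 4.32. The order of the WT and 5 week medians of list percentile therefore turned: 5 weeks was above WT in the full lists and below it with equally long lists and when scaled. The share of members with a lower list percentile than in WT at 5 weeks was 41.5% in the full lists, 76.5% with equally long lists and 81.25% when scaled, and for all genes at 1 week it was 40.5%, 71.9% and 70.97%. Within the complexes, a minimum of 5 left 18 in place of 29 genes called at 1 week in complex I, 2 in place of 4 both in complex I assembly and in complex II, and 4 in place of 9 in complex IV. Of the 3 genes with only the prefix called at 1 week, 1 remained called with a minimum of 3 or 5, with equally long lists and when scaled. The cause of each change was not tested. Depth limits what an absent call shows, since a region below the threshold of its list is not shown to be closed.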

Other observations

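The 3 subunit genes of the chain on the X chromosome, where the 1 week list held 12225 peaks, were outside the counts. Ndufa1, an accessory subunit of complex I, had a -log10 q of 6.35 in WT and 6.13 at 5 weeks and no promoter peak at 1 week. Ndufb11, also of complex I, had 11.5, 5.18 and 6.33 in the WT, 1 week and 5 week lists, and its width was 1175, 643 and 1366 bp. Cox7b of complex IV had 4.83, 1.63 and 3.42. By -log10 q all 3 genes were lowest or absent at 1 week. In fold and list percentile Cox7b was lowest at 1 week too. Ndufb11 was lowest at 5 weeks in both, with a fold of 4.25, 3.17 and 2.98 and a percentile of 84.0, 84.7 and 76.6.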
